A study of Mus musculus with 8 samples.

Results

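The Ppargc1a axis of mitochondrial biogenesis was followed through 8 genes, Ppargc1a, Ppargc1b, Nrf1, Gabpa, Esrra, Esrrg, Tfam and Tfb2m, taken from the count table by an exact match of the gene symbol. All 8 were found among the 41128 genes listed, and all 8 were among the 15771 genes that passed the filter on low counts. The tissue was the corpus callosum of PLP-150Q mice aged 5 months, in 8 poly(A) RNA-seq libraries. The 4 LAQ libraries (replicates 5 to 8) came from PLP-150Q mice given LAQ at 5 mg/kg for 2 months from the age of 3 months. The 4 control libraries (replicates 1 to 4) came from PLP-150Q mice given purified water for the same time. LAQ is read here as laquinimod, an oral immunomodulator. PLP-150Q mice carry a mutant huntingtin fragment with a long polyglutamine tract under the proteolipid protein promoter, which is active in oligodendrocytes. Both groups carry it, so no comparison with mice lacking the fragment was made.

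In GENCODE M21 on GRCm38 the 8 protein-coding genes lie at chr5:51454250-51567726 (Ppargc1a), chr18:61298136-61400431 (Ppargc1b), chr6:30047988-30153458 (Nrf1), chr16:84834925-84863779 (Gabpa), chr19:6910977-6921813 (Esrra), chr1:187608791-188214885 (Esrrg), chr10:71225464-71238280 (Tfam) and chr1:179528055-179546267 (Tfb2m).

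As background, Ppargc1a encodes PGC-1alpha, a coactivator that does not bind DNA itself but is recruited by nuclear receptors and other factors to genes of mitochondrial energy metabolism. With NRF1, GABP and the estrogen-related receptors it raises the nuclear genes of the respiratory chain and also Tfam and Tfb2m, whose proteins enter mitochondria and serve the transcription of mitochondrial DNA. In the brain PGC-1alpha is abundant in GABAergic interneurons, above all those with parvalbumin, and it has been studied in Huntington's disease, where mutant huntingtin is reported to lower its transcription. It has also been linked to myelin and cholesterol genes in oligodendrocytes. The comparison asks how the axis stood in LAQ-treated white matter of this model.

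The libraries held 9634156 to 12021429 counted reads in LAQ and 8790749 to 11972197 in control. Myelin markers were abundant in every library, with the summed level of 10 markers at 12875 to 16819 CPM in LAQ and 12128 to 13916 CPM in control (CPM, read counts scaled to library size with TMM factors). Markers of neighbouring tissue were present too and varied between libraries. LAQ 7 and LAQ 5 stood apart at opposite ends of the striatal markers, with mean z scores of 1.499 in LAQ 7 and -2.06 in LAQ 5, against -0.20 to 0.31 in control. In LAQ 7 the 9 striatal markers summed to 4324 CPM, against 645 to 2225 CPM in the other LAQ libraries and 1718 to 2239 CPM in control. Its 10 cortical excitatory markers summed to 2038 CPM, against 2993 to 3441 CPM in the other LAQ libraries and 2949 to 3453 CPM in control. All 7 hippocampal and dorsal midline markers were higher on average in LAQ. Their sum was 406, 386, 245 and 226 CPM in LAQ 5 to 8, against 169.97 to 269.8 CPM in control. All 6 markers of choroid plexus and ependyma were higher on average in LAQ (median log2 fold change 0.77). Their sum in LAQ 6 and LAQ 7 (1265 and 1601 CPM) lay within the control range of 380 to 2424 CPM. Of 8 thalamic and habenular markers, 7 were lower on average in LAQ (median -0.41). The 10 myelin markers were all higher on average in LAQ (median 0.19), as were the 3 blood markers past the filter (median 0.64). All 7 endothelial and mural markers were lower (median -0.29). The part of these differences in the results below was not tested. Results on the 8 genes are given with and without LAQ 7, and those without LAQ 5 stand beside the group counts. Whether each library came from its own mouse is not stated in the labels, so the spread behind the p-values could be partly technical.

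Short stretches of 5 promoters of the axis are shown because each holds a motif named for a factor of the axis or for CREB, which acts upstream of Ppargc1a. Promoter windows from RefSeq on GRCm38.p6 (250 bases before to 50 after each annotated start) were matched for 7 of the 8 genes, in 11 windows, while Ppargc1b was not matched. Both strands were searched for GCATGCGC (NRF1), CCGGAAG (GABP), TNAAGGTCA (estrogen-related receptors) and TGACGT (the cyclic AMP response element, bound by CREB). The motifs were chosen with the promoter sequences in view, and no matches of different motifs overlapped. A looser NRF1 form, GCANGCGC, had been searched first. It was in 9.61% of all windows and in the promoters of the same 2 genes, Esrra and Tfb2m, with 3 matches in place of 2. Each stretch runs 5′ to 3′ on the strand of the gene, with the motif in capitals. The matches of Ppargc1a and Gabpa are on the opposite strand, so their capitals show the reverse complement of the motif.
Ppargc1a, cyclic AMP response element: aggtgccctcccACGTCActgagctccagt
Tfam, GABP: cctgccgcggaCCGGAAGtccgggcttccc
Tfb2m, NRF1: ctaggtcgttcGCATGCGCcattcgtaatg
Esrra, NRF1: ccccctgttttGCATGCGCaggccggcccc
Gabpa, GABP: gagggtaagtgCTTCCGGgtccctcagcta

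These stretches lie on the minus strand at chr5:51567758-51567787 (Ppargc1a), chr10:71238073-71238102 (Tfam), chr1:179546245-179546274 (Tfb2m) and chr19:6921824-6921853 (Esrra), and on the plus strand at chr16:84835020-84835049 (Gabpa). The Tfb2m match begins at base 14 of the transcript, and the other 4 lie upstream of the RefSeq start, although those of Tfam and Gabpa fall inside the gene bounds of GENCODE M21. Over all 32851 windows of the same length, 2.71% held the NRF1 motif, 8.86% the GABP motif, 7.51% the cyclic AMP response element and 1.28% the receptor motif. The receptor motif was in none of the 11 windows. A match is a description of the letters and not evidence of binding.

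The coactivators came out lower on average in LAQ, and neither passed the test over all genes. Ppargc1a had 57.0, 57.3, 75.4 and 61.0 CPM in LAQ libraries 5, 6, 7 and 8, against 65.2, 69.8, 61.6 and 66.9 CPM in control libraries 1 to 4. LAQ 7 was the highest of all 8 libraries and the other 3 LAQ libraries were the lowest, so the groups overlapped through LAQ 7 alone. The means were 62.7 ± 8.66 CPM in LAQ and 65.9 ± 3.46 CPM in control (SD, n = 4 each), and the log2 fold change was -0.07 ± 0.10 (SE; 95% interval -0.28 to 0.14; adjusted p = 0.8292 by edgeR's quasi-likelihood test with Benjamini-Hochberg adjustment, as are all adjusted p-values below unless another fit is named). Without LAQ 7 the log2 fold change was -0.17 (95% interval -0.33 to -0.01), with an unadjusted edgeR p of 0.0376 and an adjusted p of 0.219. LAQ 7 was singled out after the values were seen. Without LAQ 5 the log2 fold change was -0.03, at an unadjusted edgeR p of 0.807.

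Ppargc1b encodes PGC-1beta, the close relative that shares many partners with PGC-1alpha. It had 25.9, 21.4, 30.6 and 26.5 CPM in LAQ 5 to 8, against 30.9, 28.5, 29.97 and 35.7 CPM in control 1 to 4. LAQ 5, 6 and 8 were below every control library, and LAQ 7 lay within the control range. The log2 fold change was -0.26 ± 0.12 (SE; 95% interval -0.52 to -0.005), the largest difference in size among the 8 genes, at an unadjusted edgeR p of 0.0461 and an adjusted p of 0.444. Without LAQ 7 it was -0.35, with an adjusted edgeR p of 0.114.

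**Figure D1:**
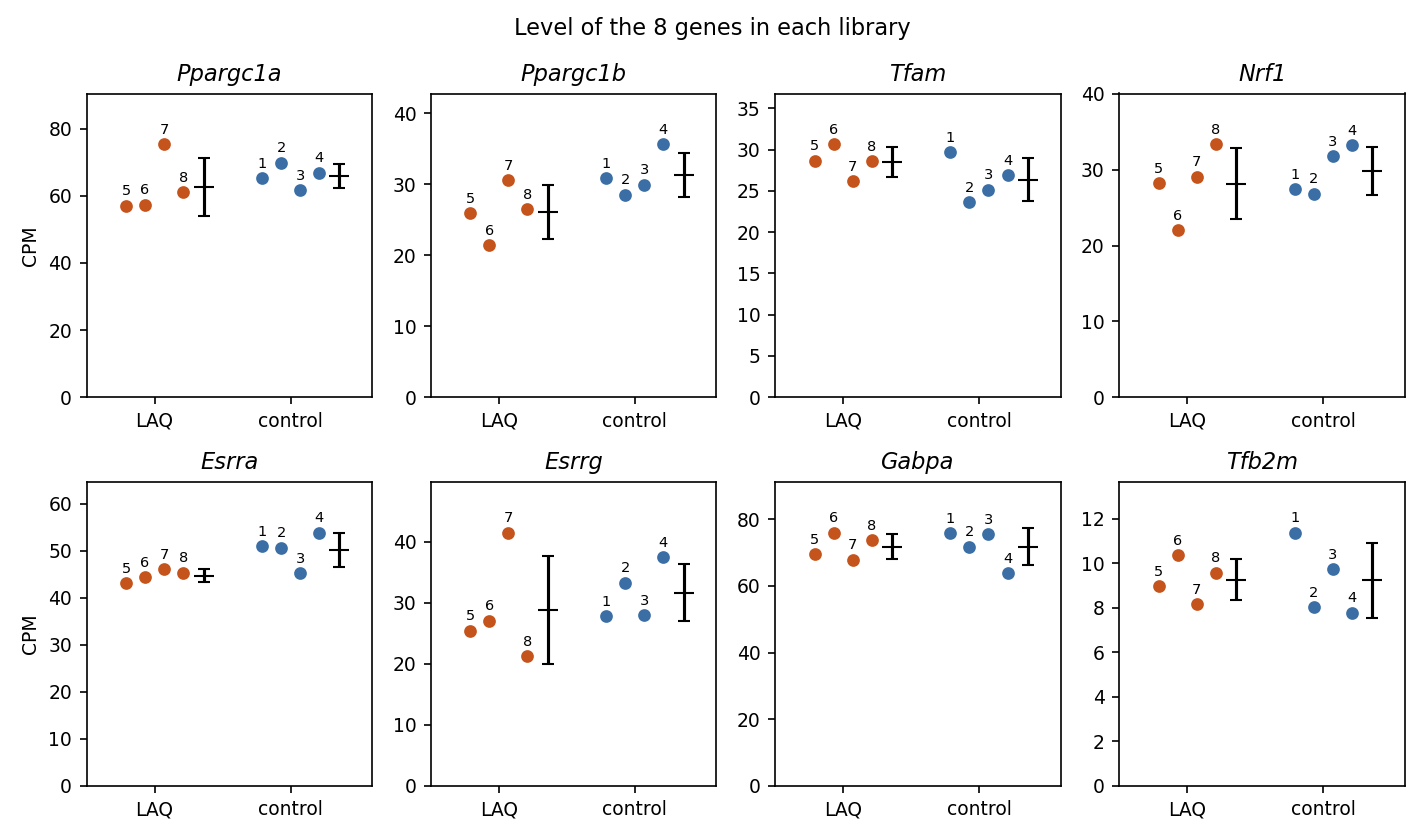
Level of each of the 8 genes in each library, in CPM on a linear axis from 0, with LAQ on the left and control on the right. Each point is 1 library with its replicate number, and the black mark and bar are the mean and SD of 4 libraries. LAQ 7 is the highest LAQ library for Ppargc1a, Ppargc1b, Esrra and Esrrg.

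The receptors that recruit the coactivators differed in how much they varied. Esrra encodes the estrogen-related receptor alpha, an orphan nuclear receptor that acts with PGC-1alpha on respiratory chain genes. It had 43.1, 44.4, 46.1 and 45.3 CPM in LAQ 5 to 8, against 51.0, 50.7, 45.2 and 53.9 CPM in control 1 to 4. The groups overlapped only because control 3 lay among the LAQ libraries, and the LAQ libraries were close together, with an SD of 1.32 CPM against 3.63 CPM in control. The log2 fold change was -0.17 ± 0.08 (SE; 95% interval -0.33 to -0.004), at an unadjusted edgeR p of 0.0459 and an adjusted p of 0.443. It was -0.18 without LAQ 7.

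Esrrg encodes the estrogen-related receptor gamma, which is enriched in some neurons of high energy demand. It had 25.4, 27.1, 41.5 and 21.2 CPM in LAQ 5 to 8, against 27.8, 33.3, 27.9 and 37.5 CPM in control 1 to 4. LAQ libraries were both the highest (LAQ 7) and the lowest (LAQ 8) of all 8. Its coefficient of variation, 30.6% in LAQ and 14.8% in control, was the highest of the 8 genes in LAQ. The log2 fold change was -0.13 ± 0.18 (SE; 95% interval -0.53 to 0.27), at an adjusted edgeR p of 0.834. Without LAQ 7 it was -0.36 ± 0.13 (SE), at an unadjusted edgeR p of 0.0143 and an adjusted p of 0.142.

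Neither of the DNA-binding factors Nrf1 and Gabpa passed the test. Nrf1 encodes nuclear respiratory factor 1, named for its role at respiratory genes, and is counted here as the gene on chromosome 6, not the antioxidant regulator Nfe2l1 that is sometimes given the same name. It had 28.2, 22.0, 29.1 and 33.4 CPM in LAQ 5 to 8, against 27.4, 26.8, 31.8 and 33.3 CPM in control 1 to 4. The lowest (LAQ 6) and the highest (LAQ 8) libraries were both LAQ, and the log2 fold change was -0.09 ± 0.13 (SE), or 0.02 without LAQ 6. Gabpa encodes the DNA-binding subunit of GABP, also called nuclear respiratory factor 2. It had 69.5, 76.0, 67.9 and 73.7 CPM in LAQ 5 to 8, against 75.8, 71.8, 75.5 and 63.9 CPM in control 1 to 4. Its group means were equal to 3 digits, 71.8 ± 3.75 CPM in LAQ and 71.8 ± 5.54 CPM in control (SD, n = 4 each), and the 95% interval of its fold change ran from 0.892 to 1.12.

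The factors of mitochondrial transcription were close between the groups as well. Tfam encodes the factor that packages mitochondrial DNA and starts its transcription. It had 28.7, 30.7, 26.2 and 28.6 CPM in LAQ 5 to 8, against 29.7, 23.6, 25.2 and 26.9 CPM in control 1 to 4. In all, 3 of the LAQ libraries were above 3 of the control libraries, and control 1 lay among the LAQ values. Its log2 fold change was 0.11 ± 0.10 (SE), the only one of the 8 above 0.01, at an adjusted edgeR p of 0.713. Tfb2m encodes the cofactor that melts mitochondrial promoters together with the RNA polymerase. It had 8.95, 10.3, 8.15 and 9.57 CPM in LAQ 5 to 8, against 11.4, 8.02, 9.72 and 7.78 CPM in control 1 to 4. These values rest on 92 to 115 reads per library in LAQ and 72 to 119 in control, the fewest of the 8 genes. Its log2 fold change was 0.005 ± 0.16 (SE), with a 95% interval from 0.788-fold to 1.28-fold.

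**Figure D2:**
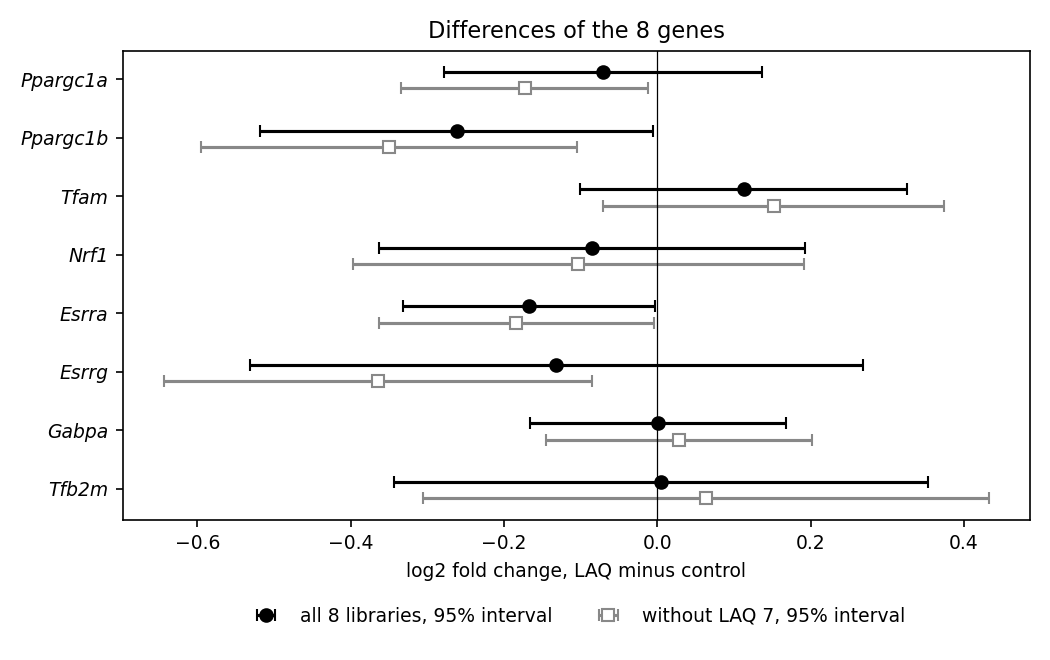
Log2 fold change of the 8 genes, LAQ minus control, from edgeR's fit on all genes, with 95% intervals. Black circles use all 8 libraries and grey squares leave out LAQ 7; with all libraries the intervals of Ppargc1b and Esrra end just below 0, and without LAQ 7 the intervals of Ppargc1a and Esrrg lie below 0 too.

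Read as a group, 0 of the 8 genes had an adjusted edgeR p under 0.05, where 0% of all genes tested did. At an unadjusted edgeR p under 0.05 there were 2 of 8, Ppargc1b and Esrra, both lower in LAQ, beside 11.1% of all genes (1750 of 15771) in either direction, 4.77% higher and 6.33% lower. These unadjusted calls were not stable: of 19 alternatives, Ppargc1b had an unadjusted p under 0.05 in 10 and Esrra in 8, and DESeq2 gave unadjusted p-values of 0.0529 for Ppargc1b and 0.0755 for Esrra. Without LAQ 5, 0 of the 8 had an unadjusted edgeR p under 0.05, and the log2 fold changes were -0.03 for Ppargc1a, -0.26 for Ppargc1b, -0.15 for Esrra and -0.07 for Esrrg. With DESeq2, which called 129 genes (0.837%), 0 of the 8 were called, and their adjusted p ran from 0.497 to 0.998. None of the 8 had LAQ libraries wholly outside the control range, beside 6.39% of all genes (2.78% higher and 3.61% lower). Of the 8, 5 were lower and 3 higher in LAQ, with a median log2 fold change of -0.08, beside -0.001 over all genes. Without LAQ 7 the 3 remaining LAQ libraries lay below all 4 control libraries for Ppargc1a, Ppargc1b and Esrrg, 3 of 8, beside 8.7% of all genes lower in that way, 7.88% higher and 16.6% in either direction. This count was chosen after the values were seen. For Ppargc1a and Esrrg that separation was small, from 61.0 CPM in LAQ 8 to 61.6 CPM in control 3 for Ppargc1a, and from 27.1 CPM in LAQ 6 to 27.8 CPM in control 1 for Esrrg. Without LAQ 7, 4 of 8 had an unadjusted edgeR p under 0.05 (19.7% of all genes), all 4 lower in LAQ (10.8% of all genes), and 0 of 8 an adjusted p under 0.05 (2.13% of all genes).

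Per length, the order of the 8 group means was the same in LAQ and in control. Over all 8 libraries Gabpa stood at 12.6 ± 0.77 CPM per kilobase of annotated exon (SD, n = 8), Esrra at 10.8 ± 0.88 and Ppargc1a at 9.75 ± 0.96. Ppargc1b followed at 7.19 ± 1.05, Tfam at 6.18 ± 0.54, Esrrg at 4.87 ± 1.08, Tfb2m at 3.30 ± 0.45 and Nrf1 at 2.82 ± 0.37 CPM per kilobase. The ranges of every pair of neighbours in this order overlapped. Within libraries Ppargc1a exceeded Ppargc1b in 8 of 8 and Esrrg exceeded Tfb2m in 8 of 8, whereas Tfam exceeded Esrrg in 6 of 8. The place of Nrf1 depends on the length used, since its exons together span 10282 bases and its longest transcript 4042. With the longest transcript Nrf1 stood at 7.18 and Esrra, at 19.1 CPM per kilobase, moved ahead of Gabpa at 14.4.

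**Figure D3:**
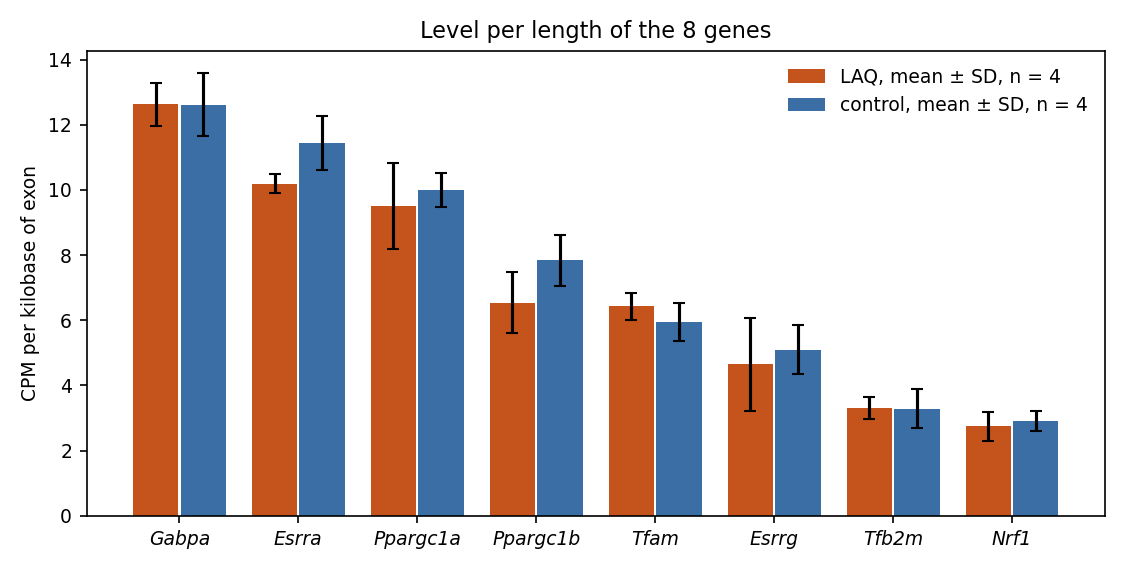
Level per length of the 8 genes, in TMM-scaled CPM per kilobase of the union of annotated exons, from the highest to the lowest mean. Bars are means of 4 libraries with SD, LAQ left of control; Gabpa, Esrra and Ppargc1a were the 3 highest in both groups.

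The variation of Ppargc1a and Esrrg between libraries went with that of particular genes. By the rule set for likeness (the highest Pearson r of log2 CPM over the 8 libraries, among 12988 genes), the 5 genes nearest to Ppargc1a were Tmtc3, Dbp, Slc8a3, Gsg1l and Nrxn3, with r from 0.97 to 0.98. Dbp is a transcription factor of the circadian clock output, Slc8a3 a sodium-calcium exchanger, Gsg1l an auxiliary subunit of AMPA receptors and Nrxn3 a presynaptic adhesion protein. Dbp had 50.01, 49.3, 80.9 and 56.5 CPM in LAQ 5 to 8, against 62.9, 71.7, 58.3 and 59.4 CPM in control 1 to 4, again with LAQ 7 at the top. The gene nearest to Esrrg was Syt2, which encodes the calcium sensor of fast transmitter release in parvalbumin interneurons, with r = 0.99. Syt2 had 39.3, 39.2, 64.9 and 30.6 CPM in LAQ 5 to 8, against 43.0, 49.2, 41.3 and 55.4 CPM in control 1 to 4, so that LAQ 7 was the highest and LAQ 8 the lowest for both genes. Sidt2, Slain2, Vps13b and Cav1 followed, with r from 0.95 to 0.98. These values describe the same 8 libraries in which the tissue markers also varied, and genes picked as the nearest of so many carry no p.

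Markers of GABAergic neurons, in which Ppargc1a is abundant, differed between libraries as well. Of 10 GABAergic markers, 8 were lower and 2 higher in LAQ, with a median log2 fold change of -0.11 and none of the 10 at 0. Their sum was 960, 979, 1322 and 1046 CPM in LAQ 5 to 8, against 1021, 1130, 1009 and 1078 CPM in control 1 to 4, highest in LAQ 7 and lowest in LAQ 5. The mean z score, which weights the 10 genes equally, was instead highest in control 2 (0.76), with 0.21 in LAQ 7. Pvalb itself, the parvalbumin gene, averaged 40.8 ± 3.57 CPM in LAQ and 43.8 ± 7.14 CPM in control (SD, n = 4 each). It stood at 38.5 CPM in LAQ 7, where Esrrg and Syt2 were highest. Among LAQ libraries it was highest in LAQ 8 (45.9 CPM), where those 2 genes were lowest. With the mean score of the 10 GABAergic markers as a covariate the log2 fold change of Ppargc1a was 0.13 ± 0.10 and that of Esrrg 0.25 ± 0.18 (SE), both of the opposite sign, while that of Ppargc1b was -0.20 ± 0.16. In bulk tissue, fewer cells of a type and less RNA per cell cannot be told apart. With the myelin score as a covariate the differences were larger, -0.34 ± 0.12 for Ppargc1a, -0.65 ± 0.21 for Esrrg and -0.61 ± 0.14 for Ppargc1b (SE), and Ppargc1b then passed edgeR's test at an adjusted p of 0.0365, beside 3.48% of all genes. With the cortical excitatory score as a covariate they were -0.26 ± 0.11 for Ppargc1a, -0.36 ± 0.25 for Esrrg and -0.51 ± 0.14 for Ppargc1b (SE), with adjusted edgeR p-values of 0.265, 0.484 and 0.0996. The myelin score was -0.09 to 1.58 in LAQ and -1.11 to -0.19 in control, without overlap, so it also carries the group. The GABAergic score was -0.66 to 0.21 in LAQ and -0.10 to 0.76 in control, with LAQ 5, 6 and 8 below every control library. The cortical score was -1.12 to 0.31 in LAQ and 0.30 to 0.59 in control, with LAQ 5, 7 and 8 below every control library. The GABAergic and cortical scores therefore carry part of the group too.

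**Figure D4:**
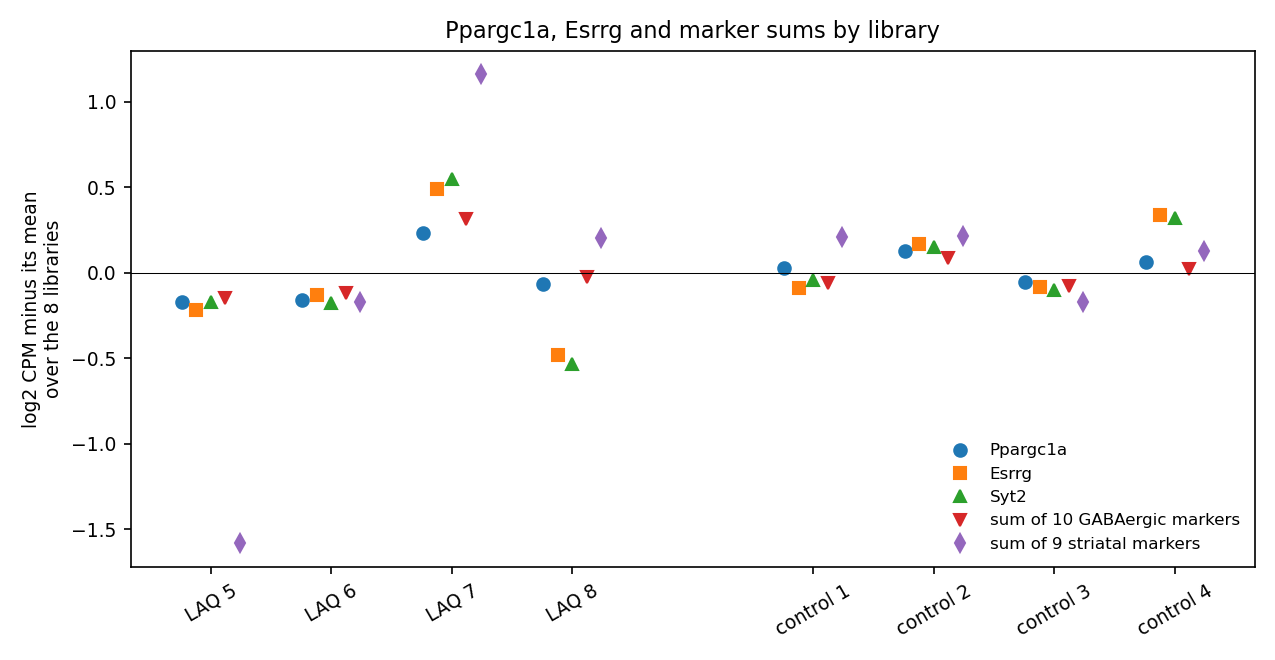
Levels of Ppargc1a, Esrrg and Syt2 and the sums of 10 GABAergic and 9 striatal markers in each library, as log2 CPM minus the mean over the 8 libraries, with LAQ libraries on the left and control libraries on the right. All 5 are highest in LAQ 7, while LAQ 8 is the lowest for Esrrg and Syt2 and LAQ 5 the lowest for the striatal sum.

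Genes of fast-spiking interneurons, several of them reported to need PGC-1alpha, were all lower on average in LAQ. Of the 6 listed, Esrrg among them, 6 had a negative log2 fold change (median -0.12), 2 had an unadjusted edgeR p under 0.05 and 0 an adjusted p under 0.05. Over all genes 7937 of 15771 were lower, 6.33% were lower at an unadjusted edgeR p under 0.05 and 3.61% were lower without overlap. Nefh, the heavy neurofilament subunit, had 91.5, 82.1, 93.8 and 80.8 CPM in LAQ 5 to 8, against 111, 108, 94.7 and 109 CPM in control 1 to 4, with no overlap between the groups. Its log2 fold change was -0.28 ± 0.08 (SE), at an adjusted edgeR p of 0.249. Cplx1, a complexin of synaptic vesicle release, had 712, 702, 720 and 755 CPM in LAQ 5 to 8, against 800, 845, 818 and 784 CPM in control 1 to 4, also without overlap, at an adjusted edgeR p of 0.360. LAQ 7 lay with its own group for both genes.

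Among receptor partners and relatives of the coactivators, 13 of 14 listed genes passed the filter, 6 higher and 7 lower in LAQ, with a median log2 fold change of -0.10 and 0 past the adjusted threshold. At an unadjusted edgeR p under 0.05 there were 2, both lower, beside 6.33% of all genes lower and 11.1% in either direction. Pprc1, the third member of the coactivator family, stood at 0.005 ± 0.10 (SE). Thra, a thyroid hormone receptor, had 298, 501, 356 and 394 CPM in LAQ 5 to 8, against 452, 529, 518 and 460 CPM in control 1 to 4, a log2 fold change of -0.34 ± 0.13 (SE), at an adjusted edgeR p of 0.387. The PPAR genes, receptors for fatty acids, were low: Ppard averaged 1.88 ± 0.24 CPM in LAQ and 2.77 ± 0.59 CPM in control, and Ppara 1.91 ± 0.51 CPM in LAQ and 2.85 ± 0.46 CPM in control (SD, n = 4 each), with adjusted edgeR p-values of 0.425 and 0.453. Pparg averaged 2.21 ± 0.94 CPM in LAQ and 3.35 ± 0.40 CPM in control, at an adjusted edgeR p of 0.481, so each PPAR gene was lower on average in LAQ. Rxra, their common partner, averaged 33.6 ± 5.12 CPM in LAQ and 39.3 ± 0.69 CPM in control, at an adjusted edgeR p of 0.453. Gabpb1 and Gabpb2, the partner subunits of Gabpa, stood at 0.24 ± 0.13 and 0.18 ± 0.20 (log2 fold change, SE).

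Of 24 upstream regulators of PGC-1alpha, 10 were higher and 14 lower in LAQ (median -0.06), with 1 higher and 3 lower at an unadjusted edgeR p under 0.05, beside 4.77% higher and 6.33% lower over all genes. The LAQ libraries lay wholly below control for 3 of the 24, Mef2c, Foxo3 and Kat2a, beside 3.61% of all genes. Mef2c, a MADS-box factor that binds the Ppargc1a promoter in muscle and is abundant in cortical neurons, had 213, 217, 196 and 163 CPM in LAQ 5 to 8, against 260, 293, 241 and 263 CPM in control 1 to 4. The groups did not overlap, and the log2 fold change was -0.42 ± 0.10 (SE). Its adjusted p was 0.181 with edgeR, 0.0193 with DESeq2 and 0.0467 with edgeR without LAQ 7. Of 10 cortical excitatory markers, 9 were also lower on average in LAQ. Their sum was 3169, 3441, 2038 and 2993 CPM in LAQ 5 to 8, against 2949 to 3453 CPM in control. Their mean z score, which weights the 10 genes equally, was -0.04, 0.31, -1.12 and -0.81 in LAQ 5 to 8. In control it was 0.30 to 0.59. Both the score and Mef2c were highest in control 2, while the score was lowest in LAQ 7 and Mef2c in LAQ 8. The part of these markers in the level of Mef2c was not tested. Foxo3, a forkhead factor of fasting and stress, averaged 10.9 ± 1.33 CPM in LAQ and 14.5 ± 1.79 CPM in control, also without overlap, at an adjusted edgeR p of 0.329. Prkaa2, a catalytic subunit of the energy sensor AMPK that phosphorylates PGC-1alpha, averaged 31.1 ± 1.86 CPM in LAQ and 36.3 ± 2.16 CPM in control, at an adjusted edgeR p of 0.372. Tfeb, the regulator of lysosome genes, averaged 22.1 ± 1.79 CPM in LAQ and 18.1 ± 1.87 CPM in control, at an adjusted edgeR p of 0.384. Sirt1, the deacetylase that activates PGC-1alpha, stood at 0.20 ± 0.12 and Kat2a, the acetyltransferase that opposes it, at -0.10 ± 0.06 (log2 fold change, SE).

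**Figure D5:**
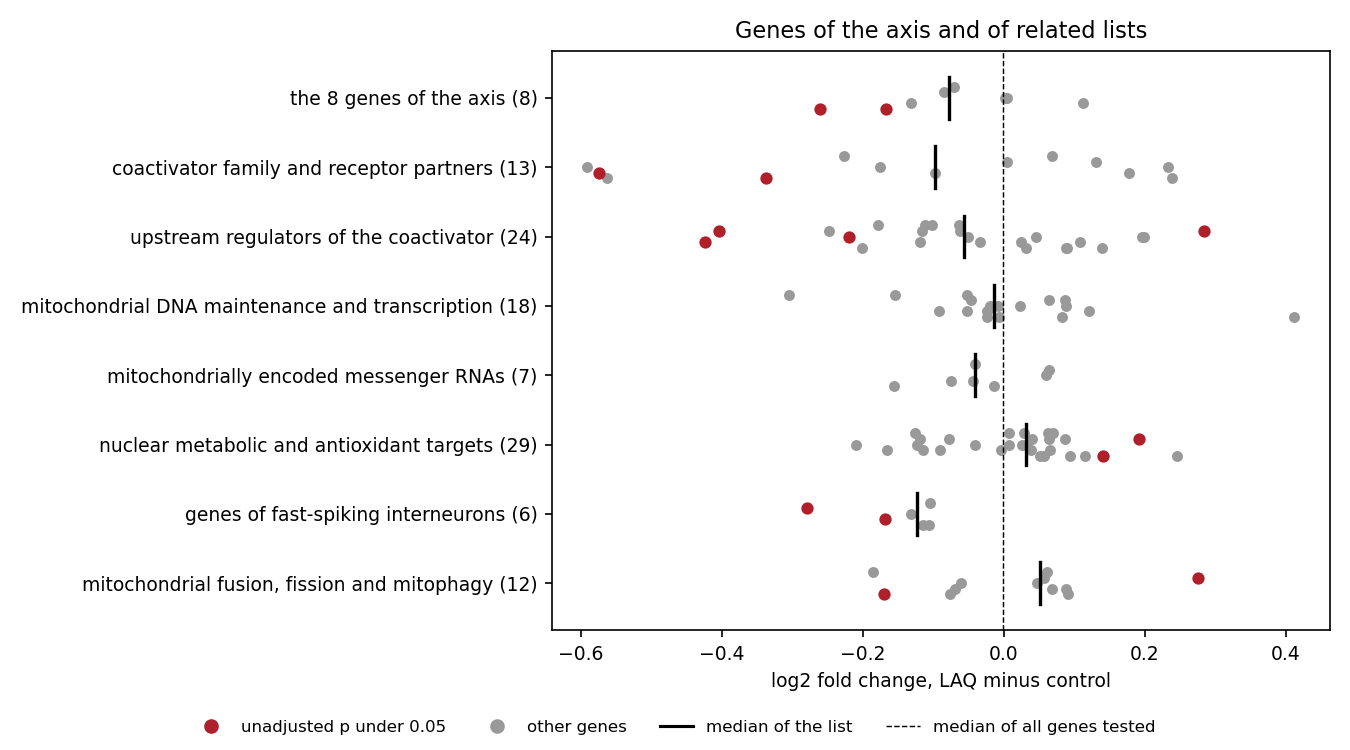
Log2 fold change, LAQ minus control, of the genes that passed the filter in each list, with their number in brackets. Points are genes, red where the unadjusted edgeR p is under 0.05, short lines are list medians and the dashed line is the median of all genes tested. The list medians run from -0.12 (fast-spiking interneurons) to 0.05 (fusion, fission and mitophagy).

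Downstream, the machinery that copies and reads mitochondrial DNA was nearly level. Of 19 listed genes 18 passed the filter, 7 higher and 11 lower in LAQ, with a median log2 fold change of -0.01 and 0 at an unadjusted edgeR p under 0.05, beside 11.1% of all genes. The 2 with the smallest p were Polg, the catalytic subunit of the mitochondrial DNA polymerase, at -0.15 ± 0.09 (SE), and Polrmt, the mitochondrial RNA polymerase that works with Tfam and Tfb2m. Polrmt averaged 50.1 ± 2.76 CPM in LAQ and 53.3 ± 3.04 CPM in control, at an adjusted edgeR p of 0.683. Mterf1a, a terminator of mitochondrial transcription, and Mterfd2, a factor of mitochondrial ribosome assembly, stood at -0.30 ± 0.25 and 0.12 ± 0.11 (SE).

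The output of that machinery was read as the share of counts from 37 mitochondrially encoded genes. It was 1.42%, 1.42%, 1.91% and 1.86% in LAQ 5 to 8, against 1.77%, 1.56%, 1.89% and 1.67% in control 1 to 4. LAQ 5 and 6 were the lowest and LAQ 7 the highest of all 8, so the control libraries lay inside the LAQ range. The log2 difference was -0.07 (exact two-sided permutation test over 70 assignments, p = 0.629, where the smallest possible p is 0.0286). The 37 genes include transfer RNAs and the ribosomal RNAs mt-Rnr1 (49831 counts summed over the libraries) and mt-Rnr2 (267082 counts). With the messenger RNAs alone the log2 difference was -0.04 (p = 0.8 by the same permutation test). Of 13 mitochondrially encoded messenger RNAs, 7 had counts, 2 higher and 5 lower in LAQ. The largest difference among them was that of mt-Nd5, a subunit of complex I, at -0.16 ± 0.15 (SE). The other 6, mt-Co2, mt-Atp8, mt-Atp6, mt-Co3, mt-Nd3 and mt-Nd4l, are listed at 0 in every library although every cell uses them. The share therefore leaves out part of the mitochondrial output.

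Of 30 nuclear metabolic and antioxidant targets listed, 29 passed the filter, 19 higher and 10 lower in LAQ, with a median log2 fold change of 0.03, 2 higher at an unadjusted edgeR p under 0.05 and 0 past the adjusted threshold, beside 4.77% of all genes higher and 11.1% in either direction at that unadjusted p. Prdx3, a mitochondrial peroxiredoxin, averaged 92.9 ± 8.66 CPM in LAQ and 81.3 ± 3.25 CPM in control (SD, n = 4 each), at an adjusted edgeR p of 0.408. Ndufs1, a core subunit of complex I, averaged 229 ± 9.33 CPM in LAQ and 208 ± 8.66 CPM in control without overlap, at an adjusted edgeR p of 0.444. It was the only 1 of the 29 without overlap, beside 2.78% of all genes higher in that way. Pdk4, a kinase that restrains glucose oxidation, averaged 30.5 ± 4.26 CPM in LAQ and 35.3 ± 2.78 CPM in control, and Sirt3, the mitochondrial deacetylase, 102 ± 3.50 CPM in LAQ and 111 ± 10.6 CPM in control. Cycs (cytochrome c) stood at 0.11 ± 0.08 and Cs (citrate synthase, often used to gauge mitochondrial content) at 0.07 ± 0.06 (log2 fold change, SE).

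Of 12 genes of mitochondrial fusion, fission and mitophagy, 7 were higher and 5 lower in LAQ, with 1 in each direction at an unadjusted edgeR p under 0.05, beside 4.77% higher and 6.33% lower over all genes. Fundc1, a receptor for mitophagy in the outer membrane, had 70.8, 72.0, 67.9 and 77.6 CPM in LAQ 5 to 8, against 56.1, 57.0, 62.6 and 62.4 CPM in control 1 to 4. The groups did not overlap, with a log2 fold change of 0.28 ± 0.07 (SE), and the adjusted p was 0.228 with edgeR, 0.0970 with DESeq2 and 0.0573 with edgeR without LAQ 7. Fundc1 was the only 1 of the 12 without overlap, beside 2.78% of all genes higher in that way. Mfn1, a mitofusin, averaged 62.2 ± 2.78 CPM in LAQ and 69.97 ± 5.89 CPM in control, at an adjusted edgeR p of 0.447, while Mfn2 stood at -0.07 ± 0.07 (log2 fold change, SE). Park2 (parkin) and Bnip3, which also serve mitophagy, stood at -0.19 ± 0.15 and 0.09 ± 0.07 (SE).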

How the data were processed

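RNA-seq of 4 LAQ and 4 control libraries was analysed. The authors deposited whole-number counts of reads for each gene symbol. The authors' other table, a normalized signal, is each count divided by 1 factor per library (largest relative deviation 5.1e-15). Build GRCm38.p3, HTSeq, STAR 2.5.2b, DESeq2 1.10.1 and bcl2fastq 2.17.1.14 are named in the submitters' processing notes; annotation release and strand setting are not given in the sources used here, so reads of overlapping antisense genes cannot be told apart.

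Of 41128 genes, 15771 passed filterByExpr (minimum count 10, minimum total 15). The quasi-likelihood test of edgeR 4.0.16 (R 4.3.3, limma 3.58.1; two-sided, TMM, no covariate, robust off) set LAQ against control, with Benjamini-Hochberg adjustment over all genes and a threshold of 0.05. The SE is the fold change divided by the root of F, and log2 CPM used a prior count of 2. Lengths came from GENCODE M21 (GRCm38). Of 214 list symbols 208 were found as written and 6 under older symbols. The members and lists were chosen with earlier results of these data known. Named genes were the 8 members, up to 4 genes of smallest p per list and 5 genes nearest to Ppargc1a and to Esrrg. Pprc1, Pparg, Gabpb1, Gabpb2, Sirt1, Kat2a, Cycs, Cs and Mfn2 were named after their values were seen. Alternatives covered normalization, filters, DESeq2 1.42.0, voom, robust estimation, 3 marker scores as covariates and leaving out each library. The fit was tested on simulated data, where it recovered 60% of genes changed 1.5-fold and 86% of those changed 2-fold. Of its 180 calls there, 11 were false. Changes as small as those of the 8 genes were not simulated.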

Additional observations from a re-analysis of the deposited data

How the results depend on the processing

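Over 19 alternatives, Ppargc1b, Esrra and Tfam kept their direction (log2 fold change -0.61 to -0.18, -0.28 to -0.09 and 0.02 to 0.19). Leaving out 1 library gave -0.17 to -0.03 for Ppargc1a, -0.35 to -0.18 for Ppargc1b, 0.07 to 0.18 for Tfam, -0.17 to 0.016 for Nrf1, -0.21 to -0.13 for Esrra, -0.36 to -0.01 for Esrrg, -0.046 to 0.032 for Gabpa and -0.067 to 0.13 for Tfb2m. The sign turned with the GABAergic score as a covariate for Ppargc1a (0.13), Esrrg (0.25), Gabpa (-0.049) and Tfb2m (-0.16), and with library size alone for Gabpa (-6.9e-05). Without LAQ 6, Nrf1 stood at 0.016, Gabpa at -0.027 and Tfb2m at -0.054; without LAQ 8, Gabpa and Tfb2m both stood at -0.008; without control 4 they stood at -0.046 and -0.067, and without control 2 Tfb2m stood at -0.05. Of the 8 genes, Ppargc1b alone passed the adjusted threshold in any alternative, with the myelin score (log2 fold change -0.61). The count of genes of the axis with LAQ wholly below control, 0 of 8, was 3 without LAQ 7, an alternative chosen after seeing the data. The count of genes past the adjusted threshold, 0 with edgeR, was 25 without a filter, 129 with DESeq2, 1 with voom and sample weights, 106 with the cortical score and 549 with the myelin score, and 0 to 339 on leaving out 1 library, the 339 being without LAQ 7. Genes at an unadjusted p under 0.05 (1750) numbered 993 with the GABAergic, 2727 with the cortical and 3340 with the myelin score, and 1254 to 3132 on leaving out 1 library. The log2 difference of the mitochondrial share ran from -0.14 to -0.0002 without 1 library; without LAQ 5 the mean share was 1.733% in LAQ and 1.722% in control, so its direction was not kept on the linear scale, nor was it without LAQ 6 (1.731% in LAQ). With the longest transcript the levels per kilobase were 7.18 (Nrf1), 19.1 (Esrra), 14.4 (Gabpa) and 3.77 (Tfb2m). The causes of these shifts were not tested. No paired analysis was possible because the groups share no replicate number.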

Other observations

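The 6 mitochondrial messenger RNAs listed at 0 are neighbours. In GENCODE M21 (GRCm38) mt-Co2, mt-Atp8, mt-Atp6, mt-Co3, mt-Nd3 and mt-Nd4l fill the mitochondrial genome from base 7013 to base 10173, and all 9 genes annotated in that stretch, 3 transfer RNA genes included, had 0 counts in all 8 libraries. The transfer RNA gene mt-Td, directly before the stretch (bases 6942 to 7011), had 0 counts too, as did some transfer RNA genes elsewhere, such as mt-Tf and mt-Th. The nearest messenger RNAs on either side, mt-Co1 and mt-Nd4, had 254755 and 88155 counts summed over the libraries. Among messenger RNAs, a comparison of mitochondrial output in these data therefore rests on 7 of the 13. The share over 37 genes also counts ribosomal and transfer RNAs.

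None of 18 groups of 4 values (the 8 genes and the mitochondrial share, in LAQ and in control) held a library set apart from the rest of its group by Dixon's test at its 95% critical value.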
